A study of Mus musculus with 4 samples.

Results

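Genes of TGF-beta, BMP and CCN growth signalling were followed in dendritic cells lacking GOLPH2, a Golgi membrane protein encoded by Golm1. They are Ctgf, Cyr61, Bmp2, Tgfb1, Tgfb2, Tgfb3, Tgfbi, Tgfbr1, Tgfbr2 and Smad7, 10 of the 15881 genes listed in either of the authors' 2 deposited tables, and all 10 were in both. The list was chosen by hand because the unstimulated KO over WT ratios of Cyr61, Ctgf and Bmp2 were large, so values of unstimulated cells are given below as a description and support nothing. The cells were bone marrow-derived dendritic cells (BMDCs) of C57BL/6 mice aged 8 weeks, of wild type (WT) or GOLPH2-/- (KO) genotype. Stimulated cultures received IFN-gamma during 16 h, followed by 4 h of LPS, a component of the bacterial outer membrane, and unstimulated cultures received neither. This gave 4 libraries of strand-specific mRNA sequencing, 1 per group, with no replicate check of any difference. The labels do not say how many mice a culture came from, or which part of Golm1 was removed.

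TGF-beta ligands are made as latent complexes that must be released before they bind a type II receptor (Tgfbr2), which recruits and activates a type I receptor (Tgfbr1). The receptors phosphorylate Smad proteins, which enter the nucleus and switch on target genes, among them the inhibitory Smad7 that ends the signal. BMP ligands such as Bmp2 signal through related receptors and other Smads. Cyr61 and Ctgf encode matricellular proteins of the CCN family, secreted proteins that bind integrins and matrix, and are classic targets of YAP/TEAD and serum response factor. In dendritic cells TGF-beta is known for restraining maturation.

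The deposited tables give a log2 ratio and a p-value per gene and no reads. The read numbers could be recovered from these, as described under processing: 99.6% of the 4828 genes with up to 100 reads in unstimulated cells and 99.7% of the 4889 in stimulated cells gave numbers within 0.1 of a whole read in both libraries. Recovered totals were 32376878 and 37130406 reads in unstimulated WT and KO cells, and 35365938 and 34446700 in stimulated WT and KO cells. Levels below are reads-per-million values (RPM) of these totals. Each ratio is the deposited log2 value for KO against WT less the zero point found for the deposited p-values. The error after ± is the counting standard error (SE) behind the deposited p, which covers the sampling of reads and not the spread between cultures. Where the deposited p was at its limit, this SE is an upper limit. Among genes given below, these were Golm1, Tgfbi, Thbs1, Inhba, Cd14 and Itgax in unstimulated cells, and Thbs1 and Cd14 in stimulated cells. A gene is called where the Benjamini-Hochberg adjusted deposited p was under 0.001, which compares 2 libraries and not the conditions. Golm1 had 779 reads in stimulated WT and 190 in stimulated KO cells, a centred ratio of −2.00 ± 0.10, and the unstimulated ratio was −2.09 ± 0.10 from reads that are lower limits. Of 11 listed dendritic cell markers, 10 were in each table. In each state 7 of these were called higher and 0 lower in KO cells. Over all genes, 4.70% were called higher in unstimulated and 5.36% in stimulated cells. The list median was 0.18 in unstimulated and 0.11 in stimulated cells. The called ratios ran from Cd74 (0.04 ± 0.01 and 0.08 ± 0.01) to Clec10a (0.84 ± 0.11 and 0.86 ± 0.15). Batf3 (0.51 ± 0.04 and 0.57 ± 0.04) and Itgax (0.32 ± 0.02 and 0.29 ± 0.02) lay between them. Zbtb46 (−0.01 ± 0.07 and −0.14 ± 0.07) and Flt3 (0.27 ± 0.11 and 0.13 ± 0.11) were called in neither state. The summed level of the listed markers was 6475 and 6907 RPM in unstimulated WT and KO cells and 6976 and 7553 RPM in stimulated WT and KO cells. Cd74 alone made up 3509 of the 6475 RPM in unstimulated WT cells and 3528 of the 6976 RPM in stimulated WT cells. Its reads were estimated and not recovered as whole numbers, and the unstimulated reads of Itgax are lower limits. The part of these markers in the member ratios was not tested.

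The upstream region of Cyr61, the member with the largest ratio, and those of Tgfbi and Tgfb2, members called in stimulated cells, are shown first as context. They are the 250 bases before the annotated start, 5′ to 3′ on the gene's strand, from RefSeq (GRCm38.p6); 6 of the 10 members matched an entry of that table, Cyr61 under its current symbol Ccn1. Tgfb1, also called in stimulated cells, matched an entry too, but its window is not shown. The Tgfb2 window precedes a start that lies inside the annotated gene span. Capitals mark GGAATG or its reverse complement, the core bound by TEAD factors, and TATAAA, the TATA box.

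Cyr61, chr3:145649986-145650235, minus strand: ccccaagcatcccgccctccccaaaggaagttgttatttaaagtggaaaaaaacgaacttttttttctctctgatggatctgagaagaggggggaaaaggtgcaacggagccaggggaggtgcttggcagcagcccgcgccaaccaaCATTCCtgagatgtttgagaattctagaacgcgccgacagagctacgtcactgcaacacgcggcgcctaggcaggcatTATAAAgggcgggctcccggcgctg
Tgfbi, chr13:56609336-56609585, plus strand: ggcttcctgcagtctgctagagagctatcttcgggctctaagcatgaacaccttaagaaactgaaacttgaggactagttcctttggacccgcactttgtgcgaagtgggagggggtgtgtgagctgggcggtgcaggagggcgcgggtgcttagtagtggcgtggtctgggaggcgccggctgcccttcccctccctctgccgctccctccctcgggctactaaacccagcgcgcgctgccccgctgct
Tgfb2, chr1:186705990-186706239, minus strand: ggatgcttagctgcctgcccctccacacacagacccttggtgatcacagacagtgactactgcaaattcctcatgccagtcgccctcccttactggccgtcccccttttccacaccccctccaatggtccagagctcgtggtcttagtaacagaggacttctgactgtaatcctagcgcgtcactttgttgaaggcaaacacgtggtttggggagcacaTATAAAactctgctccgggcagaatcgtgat

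Among the promoters printed, the TEAD core was found in that of Cyr61, at 103 bases before the start on the opposite strand. It was present in 12.6% of the 32851 RefSeq promoter windows of this length. A TATA box began 25 bases before the start of Cyr61 and 31 bases before that of Tgfb2, and 12.4% of all windows held this motif on either strand. The short Smad element GTCTG or its complement occurred at 2 places in the Tgfbi window and 2 in the Tgfb2 window, against 42.2% of all windows with at least 1. The Tgfb1 window held no match to this element, the TEAD core or the TATA box. The palindromic Smad element GTCTAGAC (0.167% of all windows), the AP-1 element TGANTCA (6.75%) and the cyclic AMP response element TGACGTCA (1.55%) were searched on both strands and matched in none of the member windows. These matches describe letters and not binding.

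The levels of the 10 genes differed widely. Per kilobase of exon (GENCODE M21), unstimulated WT cells had 240.8 RPM of Tgfbi, 92.5 of Tgfb1, 13.4 of Tgfbr1, 5.95 of Tgfbr2, 4.69 of Smad7 and 2.17 of Tgfb2. Below these, Bmp2 (0.426) and Ctgf (0.421) did not differ beyond their 95% counting intervals, nor did Tgfb3 (0.146) and Cyr61 (0.0765), the lowest of the 10. In unstimulated KO cells Ctgf (1.04) and Cyr61 (0.547) stood above Tgfb3 (0.175) and Bmp2 (0.136). Values of the receptors, Tgfb1 and Tgfbi rested on at least 1024 reads a library, and those of Cyr61, Ctgf, Bmp2 and Tgfb3 on 5 to 110. In bulk RNA, a change in the number of cells that make a transcript and a change in transcript per cell cannot be told apart.

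**Figure D1:**
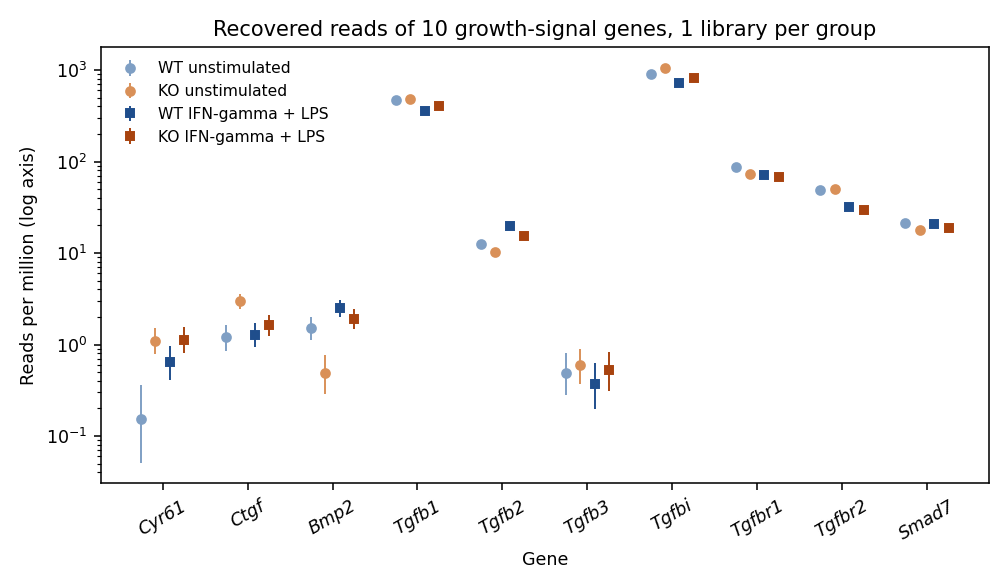
RPM (log axis) of the 10 genes in the 4 libraries, with exact 95% Poisson intervals of the reads; circles are unstimulated and squares stimulated cells, blue WT and orange KO. Cyr61 in unstimulated WT cells (5 reads) and Bmp2 in unstimulated KO cells (18 reads) lie apart from the other 3 libraries of the same gene.

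The CCN genes came first. Cyr61 (chromosome 3, 145646971 to 145649985, GRCm38.p6, protein-coding) had 5 reads in unstimulated WT, 41 in unstimulated KO, 23 in stimulated WT and 39 in stimulated KO cells. The unstimulated WT library was the low one, and the other 3 lay between 0.650 and 1.13 RPM, against 0.154 RPM. The unstimulated ratio was 2.84 ± 0.54, a 7.18-fold higher level in KO cells, and the exact 95% binomial interval of the reads ran from 2.84-fold to 23.3-fold. After stimulation the ratio was 0.80 ± 0.37 (1.74-fold, interval 1.01 to 3.05), and Cyr61 was not called.

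Ctgf (chromosome 10, 24595442 to 24598683, now named Ccn2, protein-coding) had 39 reads in unstimulated WT, 110 in unstimulated KO, 45 in stimulated WT and 56 in stimulated KO cells. Here the unstimulated KO library was the high one, at 2.96 RPM, with at most 1.63 RPM in the other 3. The ratios were 1.30 ± 0.25 in unstimulated cells (2.47-fold, interval 1.70 to 3.66) and 0.35 ± 0.29 in stimulated cells (1.28-fold, interval 0.846 to 1.93), the latter not called. The 3 other CCN genes that were listed, Nov, Wisp1 and Wisp3, had 0 calls in either state, beside 8.96% (unstimulated) and 11.9% (stimulated) of all genes. Nov, the only 1 of them with more than 3 reads in any library, was at 0.01 ± 0.07 in unstimulated cells (909 WT and 1046 KO reads) and at 0.20 ± 0.08 in stimulated cells (691 and 774 reads).

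Among the ligands, Bmp2 (chromosome 2, 133552159 to 133562896, protein-coding), a morphogen of bone and iron regulation, had 49 reads in unstimulated WT, 18 in unstimulated KO, 88 in stimulated WT and 66 in stimulated KO cells. The unstimulated KO library was the low one at 0.485 RPM, and the others lay between 1.51 and 2.49 RPM. Its ratio was −1.64 ± 0.37 in unstimulated cells, 32.2% of WT (interval 0.176-fold to 0.562-fold). In stimulated cells it was −0.38 ± 0.23, or 76.9% of WT, and not called.

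Tgfb1 (chromosome 7, 25687002 to 25705077, protein-coding), the main TGF-beta of leukocytes, had 15105 reads in unstimulated WT, 17966 in unstimulated KO, 12567 in stimulated WT and 13792 in stimulated KO cells. It was called higher in stimulated KO cells, at 0.17 ± 0.02 or 1.13-fold (400.4 against 355.3 RPM), and not called in unstimulated cells, at 0.06 ± 0.02. Tgfb2 (chromosome 1, 186622787 to 186709697, protein-coding) had 406 and 380 reads in unstimulated WT and KO cells and 692 and 533 in stimulated WT and KO cells. It was called lower in stimulated KO cells at −0.34 ± 0.08, 79.0% of WT. The unstimulated ratio of Tgfb2 was −0.29 ± 0.10 and not called. Tgfb3 (chromosome 12, 86056743 to 86079041, protein-coding) had 16, 22, 13 and 18 reads in unstimulated WT and KO and stimulated WT and KO cells. Tgfb3 was called in neither state, and the stimulated interval ran from 0.658-fold to 3.15-fold.

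Of the receptors, Tgfbr1 (chromosome 4, 47353222 to 47414926, protein-coding) had 2835 and 2747 reads in unstimulated WT and KO cells and 2529 and 2364 in stimulated WT and KO cells. Its level of 87.6 RPM in unstimulated WT cells was above the other 3 libraries, which lay between 68.6 and 74.0 RPM. The ratios were −0.24 ± 0.04 in unstimulated cells, where the gene was called, and −0.06 ± 0.04 in stimulated cells, where it was not. Tgfbr2 (chromosome 9, 116087695 to 116175363, protein-coding) had 1576, 1880, 1138 and 1024 reads in the same order. It was called in neither state, with ratios of 0.06 ± 0.05 and −0.12 ± 0.06.

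Downstream of the receptors, Smad7, the inhibitory Smad, had 686 and 670 reads in unstimulated WT and KO cells and 732 and 646 in stimulated WT and KO cells. Both ratios were below 0, at −0.23 ± 0.08 and −0.14 ± 0.08, and neither was called. Tgfbi (chromosome 13, 56609586 to 56639359, protein-coding) encodes a TGF-beta induced matrix protein. It had 25287 reads in stimulated WT and 28482 in stimulated KO cells, and at least 29403 and 39516 in unstimulated WT and KO cells, where its p was at the highest value the table holds and the reads are lower limits. Tgfbi was called higher in both states, at 0.24 ± 0.01 (1.18-fold) in unstimulated and 0.21 ± 0.01 (1.15-fold) in stimulated cells, and was the member called in both.

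**Figure D2:**
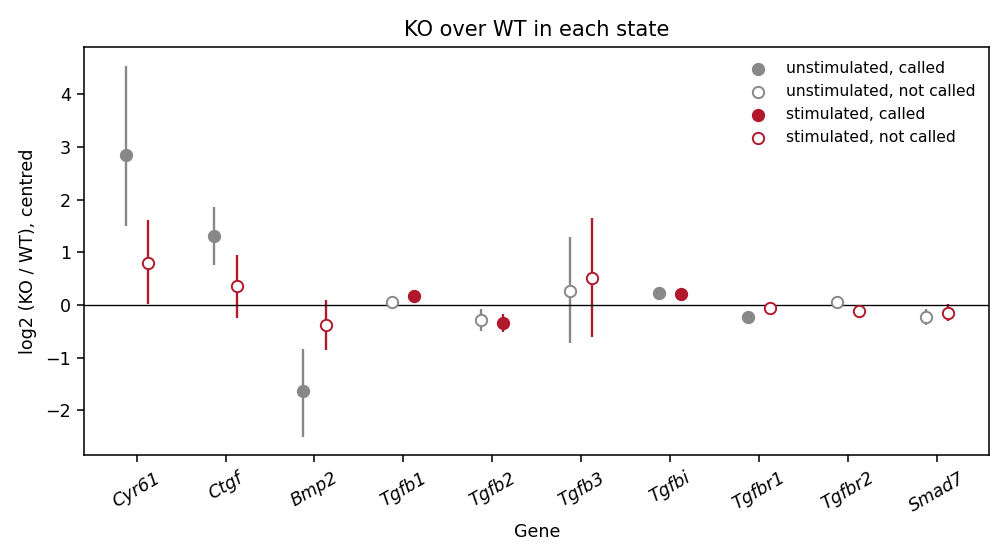
Centred log2 ratio of KO over WT for the 10 genes in unstimulated (grey) and stimulated (red) cells, with exact 95% binomial intervals of the recovered reads; filled points are called. The largest unstimulated ratios are those of Cyr61 (2.84), Bmp2 (−1.64) and Ctgf (1.30), and in stimulated cells the called members lie between −0.34 and 0.21.

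The stated rule used unstimulated ratios, but stimulated results were also known when the members were listed. In stimulated cells 3 of 10 members were called, beside 11.9% of all 15310 genes. Tgfb1 and Tgfbi were called higher (5.36% of all genes) and Tgfb2 lower (6.54%), and 0 of the 10 were called at 1.5-fold or more (1.02% of all genes). The member median was 0.05, against 0.01 over all genes. The 3 called genes had between 533 and 28482 reads per library, and Cyr61, Ctgf, Bmp2 and Tgfb3 had at most 88, with counting errors of 0.23 to 0.52. In unstimulated cells 5 of 10 were called (8.96% of all 15394 genes): Cyr61, Ctgf and Tgfbi higher (4.70%) and Bmp2 and Tgfbr1 lower (4.27%), of which Cyr61, Ctgf and Bmp2 were at 1.5-fold or more (0.708%). Nothing is read from these unstimulated counts. Over all genes 723 were called higher and 657 lower in unstimulated cells, against 1010 and 369 with the ratios as deposited. The authors' deposited table marked Cyr61, Ctgf and Bmp2 as differentially expressed and as key genes in unstimulated cells, and none of the 10 in stimulated cells.

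The recovered reads also allowed each genotype to be compared between states, a comparison the deposited tables do not hold. The unstimulated libraries are those that chose the members, so these values are a description. In WT cells, Cyr61 was 4.21-fold higher after stimulation (2.07 ± 0.71 on the log2 scale, from 5 to 23 reads), and in KO cells the difference was 0.04 ± 0.32 (41 and 39 reads). Ctgf differed by 1.06-fold (0.08 ± 0.32) in WT cells and had a 1.82-fold lower level in stimulated KO cells (−0.87 ± 0.24). Bmp2 was higher after stimulation in both genotypes, 1.64-fold in WT (0.72 ± 0.26) and 3.95-fold in KO cells (1.98 ± 0.38). In each of the 3 genes the KO over WT ratio was nearer to 0 in stimulated than in unstimulated cells. The 3 genes were chosen for large unstimulated ratios, so ratios nearer to 0 in separate libraries are likely from that choice alone. Nothing is read from this.

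The TGF-beta ligand and receptor genes had values of the same sign in both genotypes. Tgfb2 was higher after stimulation by 1.56-fold in WT (0.64 ± 0.09) and 1.51-fold in KO cells (0.60 ± 0.10). Tgfbr2 was lower by 1.51-fold in WT (−0.60 ± 0.06) and 1.70-fold in KO cells (−0.77 ± 0.06). Tgfb1 was lower by 1.31-fold in WT and 1.21-fold in KO cells, and Tgfbi by 1.27-fold and 1.29-fold, from unstimulated reads that are lower limits. In each genotype 4 of the 10 members were past 1.5-fold, beside 22.8% of 14823 genes in WT and 22.2% in KO cells. Over genes with at least 50 reads in both states the median gene was at −0.15 in WT and −0.14 in KO cells. Relative to it, Tgfbr1 in KO cells (0.03) and Smad7 in WT cells (0.12) changed sign. Tgfbr2 in WT cells was at −0.44, under 1.5-fold, which left 3 members in WT and 4 in KO cells.

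**Figure D3:**
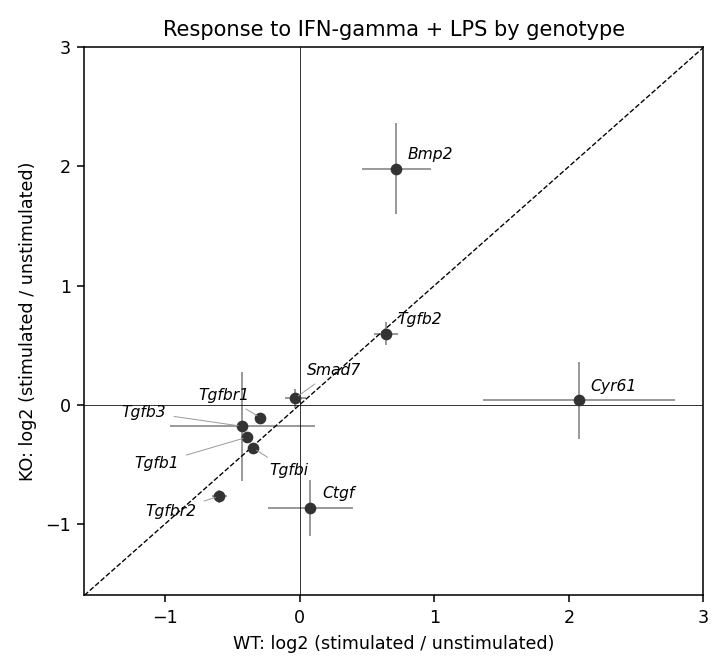
Log2 of stimulated over unstimulated RPM in WT (horizontal) against KO cells (vertical) for the 10 genes; bars are 1 counting standard error and the dashed line marks equal response. Cyr61 (2.07 in WT, 0.04 in KO), Bmp2 (0.72 and 1.98) and Ctgf (0.08 and −0.87) lie off the line, and Tgfb2 (0.64 and 0.60) lies near it.

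The difference between the KO over WT ratios of the 2 states has no residual degrees of freedom and was not tested. Stimulated minus unstimulated, it was −2.05 ± 0.66 for Cyr61, −0.95 ± 0.38 for Ctgf and 1.26 ± 0.44 for Bmp2. These genes were chosen for large unstimulated ratios, which alone makes large differences between the states likely. The difference was smaller for Tgfb1 (0.11 ± 0.02), Tgfbr1 (0.18 ± 0.06), Tgfbr2 (−0.18 ± 0.08) and Tgfbi (−0.03 ± 0.02). For Tgfb2 (−0.05 ± 0.13), Tgfb3 (0.24 ± 0.70) and Smad7 (0.08 ± 0.11) it lay within 1 counting error of 0.

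The rest of the pathway was read from 9 gene lists with 121 genes besides the members, of which 101 had an entry for unstimulated and 106 for stimulated cells. Of these, 16.8% and 21.7% were called, beside 8.96% and 11.9% of all genes, and their medians were 0.01 in both states. Among genes that store or activate TGF-beta, 3 of 13 were called higher and 1 lower in each state. The lower gene in both was Thbs1, whose product thrombospondin-1 releases TGF-beta from its latent form, at −0.42 ± 0.02 in unstimulated and −0.47 ± 0.02 in stimulated cells (at least 15594 WT and 11011 KO reads in the latter). Lrrc32, which encodes GARP, the protein that holds latent TGF-beta on the cell surface, was called higher in stimulated cells at 0.50 ± 0.10 (341 and 471 reads). Furin, a protease that cleaves the TGF-beta precursor, was called higher in both states, at 0.20 ± 0.02 and 0.12 ± 0.01. The latent TGF-beta binding protein gene Ltbp2 was called at 1.5-fold or more in unstimulated cells, at 0.75 ± 0.16 (120 WT and 230 KO reads). The others called higher were Emilin1 (0.22 ± 0.05, unstimulated) and Mmp14 (0.10 ± 0.02, stimulated).

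Of the other ligands, Inhba, which encodes the activin A subunit, was called lower in both states, at −0.33 ± 0.02 and −0.29 ± 0.01 (30006 WT and 23923 KO reads in stimulated cells). Its list of activins, GDFs and inhibitors had 0 of 10 higher and 1 lower in unstimulated cells (4.70% and 4.27% of all genes). In stimulated cells 2 of 11 were higher (5.36% of all genes), the activin antagonist gene Fst (0.34 ± 0.06) and Fstl1 (0.12 ± 0.02), and 1 lower (6.54%). The list of other BMP ligands and antagonists had 0 of 10 and 0 of 11 members called, beside 8.96% and 11.9% of all genes. Of 11 other receptors, Acvr1b, a type I activin receptor, was called lower in both states (−0.21 ± 0.05 and −0.22 ± 0.05), and Eng, the co-receptor endoglin, higher in unstimulated cells (0.23 ± 0.04).

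Smads and their regulators had 0 of 15 called higher and 2 lower in unstimulated cells, and 0 of 16 higher and 1 lower in stimulated cells. The shares over all genes were 4.70% higher and 4.27% lower in unstimulated cells, and 5.36% and 6.54% in stimulated cells. In lists of this size 0 called higher is near those shares. The corepressor gene Skil was called lower in both states (−0.08 ± 0.02 and −0.11 ± 0.02), and with the ratios as deposited its unstimulated ratio was above 0, which made that list 1 higher and 1 lower. Tgif1, another corepressor, was called lower in unstimulated cells (−0.28 ± 0.03). Smad2, Smad3 and Smad4, which carry the TGF-beta signal, were at −0.02 ± 0.05, −0.05 ± 0.17 and −0.04 ± 0.04 in unstimulated cells and at 0.08 ± 0.05, −0.27 ± 0.16 and 0.02 ± 0.04 in stimulated cells. Of the BMP response list, Id1, a direct BMP target, was called higher in unstimulated cells at 0.57 ± 0.10 (334 WT and 566 KO reads). Hamp, which encodes hepcidin, was called lower in unstimulated (−0.26 ± 0.07) and higher in stimulated cells (0.18 ± 0.04), and Id2 higher in stimulated cells (0.07 ± 0.01).

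TGF-beta response genes had 6 of 17 called higher and 3 lower in unstimulated cells, with a median of 0.32, and 5 higher and 4 lower in stimulated cells, with a median of 0.18. Over all genes 4.70% were called higher and 4.27% lower in unstimulated cells, and 5.36% and 6.54% in stimulated cells. With the ratios as deposited, the unstimulated split of this list was 8 higher and 1 lower. Those called at 1.5-fold or more were Col3a1, Col1a2, Fn1 and Ltbp2 in unstimulated and Col3a1, Col1a1, Col1a2 and Fn1 in stimulated cells, all higher in KO cells and all genes of extracellular matrix. Fibronectin (Fn1) was at 1.07 ± 0.09 and 1.43 ± 0.07, and Col3a1 at 3.06 ± 0.58 (4 WT and 38 KO reads) and 6.27 ± 0.40 (3 and 226 reads). Among response genes that do not encode matrix, Pmepa1, a feedback inhibitor of Smad signalling, was called higher in both states (0.34 ± 0.04 and 0.28 ± 0.04).

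YAP/TEAD and serum response factor genes are the usual regulators and co-targets of Cyr61 and Ctgf. Of these, 0 of 21 were called in unstimulated cells (8.96% of all genes), with a median of 0.02. Only 14 of the 21 had at least 50 reads in both unstimulated libraries. In stimulated cells 1 of 21 was called higher (5.36% of all genes), the tissue factor gene F3 (0.39 ± 0.07). Called lower were 3 (6.54% of all genes), Crim1 (−0.50 ± 0.11), Mkl2 (−0.24 ± 0.06) and the receptor kinase gene Axl (−0.24 ± 0.03). The list median was −0.07. In unstimulated cells the list ran from −0.43 (Acta2, 59 WT and 50 KO reads) to 2.98 (Tead3, 1 and 9 reads). There Srf was at −0.11 with 2621 WT and 2775 KO reads, Yap1 at 0.13 with 57 and 71, and the target Amotl2 at 0.33 with 16 and 23.

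**Figure D4:**
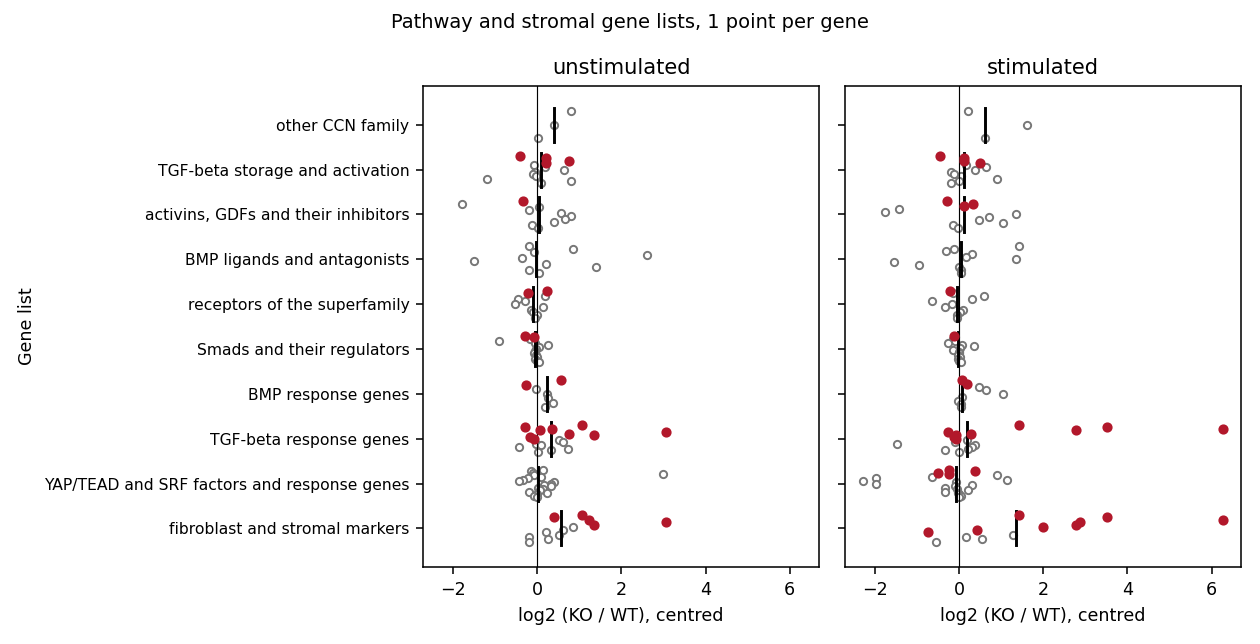
Centred log2 ratio of KO over WT of each listed pathway gene and stromal marker in unstimulated (left) and stimulated cells (right); 1 point per gene, red where called, with a black bar at the list median. The highest ratio in each panel is that of Col3a1 (3.06 and 6.27), which is in both the TGF-beta response and the stromal list.

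Markers of fibroblasts and stroma were counted next, and Fn1, Col1a1, Col1a2 and Col3a1 are in this list as well as among the TGF-beta response genes. Of 12 such markers, 5 were called higher and 0 lower in unstimulated cells (4.70% and 4.27% of all genes), and 7 higher and 1 lower (Pdgfrb, −0.74 ± 0.15) in stimulated cells (5.36% and 6.54%). Dcn, Lum and Pdgfra, which mark fibroblasts, were called in neither state. The summed level of all 12 markers was 85.7 RPM in unstimulated WT, 122.2 in unstimulated KO, 92.7 in stimulated WT and 168.3 in stimulated KO cells. Of the 12, 0 were without reads in any library. Among them, Col5a2 was at 1.23 ± 0.22 and 2.86 ± 0.18, Col1a2 at 1.36 ± 0.29 and 2.77 ± 0.21, and Sparc at 1.99 ± 0.20 in stimulated cells. Their part in the CCN ratios was not tested. Thy1, which other cell types also express, made up 59.1 of the 85.7 RPM in unstimulated WT cells and was at 0.40 ± 0.04 and 0.41 ± 0.04.

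Markers of other cells were measured beside them. Over all genes 4.70% were called higher and 4.27% lower in unstimulated cells, and 5.36% and 6.54% in stimulated cells. Endothelial markers had 1 of 8 called higher (Flt1, 0.81 ± 0.10) and 1 lower in unstimulated cells and 0 higher and 2 lower in stimulated cells, with sums of 105.5 to 145.6 RPM. Platelet and megakaryocyte markers, a cell type rich in TGF-beta, had 0 of 6 called in unstimulated cells and 1 of 5 higher in stimulated cells, with sums between 44.3 and 68.3 RPM. Macrophage markers had 5 of 9 higher and 2 lower in unstimulated and 4 higher and 2 lower in stimulated cells. The complement gene C1qb was at 1.0 ± 0.15 in unstimulated cells (127 WT and 290 KO reads) and at 0.94 ± 0.15 in stimulated cells (138 and 259 reads). The lower genes in both states were Cd14 (−0.51 ± 0.02 and −0.27 ± 0.01) and Csf1r (−0.27 ± 0.01 and −0.15 ± 0.02). The macrophage sum was 1355 and 1249 RPM in unstimulated WT and KO cells and 2150 and 1960 RPM in stimulated WT and KO cells. In unstimulated WT cells Csf1r made up 618.7 and Cd14 246.0 of the 1355 RPM. In stimulated WT cells they made up 480.2 and 1239 of the 2150 RPM. The reads of Cd14 are lower limits. Lymphocyte markers had 1 of 9 called higher and 0 lower in each state, Gzma in unstimulated cells (0.86 ± 0.16) and Gzmb in stimulated cells (0.68 ± 0.15). Their sum was 12.9 and 18.9 RPM in unstimulated WT and KO cells and 11.1 and 16.7 RPM in stimulated WT and KO cells. Neutrophil markers had 0 higher and 1 lower in each state, Lcn2 (−0.37 ± 0.02 and −0.24 ± 0.02). Their sums were 233.7 and 179.7 RPM in unstimulated and 359.9 and 305.9 RPM in stimulated WT and KO cells. Lcn2 alone made up 227.0 of the 233.7 RPM in unstimulated WT cells and 351.7 of the 359.9 RPM in stimulated WT cells. The part of these cell types in the member ratios was not tested.

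By the pair of ratios in the 2 comparisons, the genes nearest to Ctgf among 2388 called in at least 1 state were Mir132 (1.58 ± 0.36 and 0.45 ± 0.63), Il31ra (0.92 ± 0.08 and 0.59 ± 0.12) and Tgm1 (0.86 ± 0.12 and 0.53 ± 0.14), at distances of 0.29 to 0.48 log2 units. The genes nearest to Cyr61, Mir132, Fbln2 and Lamb1, lay 1.31 to 1.40 log2 units away. Nearest to Bmp2 were Slc40a1 (−1.35 ± 0.13 and −0.42 ± 0.07), which encodes the iron exporter ferroportin, Spic (−1.75 ± 0.37 and −0.73 ± 0.27), a transcription factor of iron-handling macrophages, and Rnf144a (−1.06 ± 0.26 and −0.36 ± 0.17). Likeness over 2 values is a description of these libraries.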

How the data were processed

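Per the labels' protocols, RNA was isolated with an RNeasy kit and a TruSeq mRNA kit that keeps the strand was used for the libraries. FastQC 0.10.1, HTSeq 0.6.0 and the build mm10 were used, per the submitters' processing notes; aligner, annotation and test: not given in the sources used here. Per the file headers, the authors deposited a log2 fold change per gene. The authors also deposited a log10 p-value, which from its values is −log10 p, with no value above 100 (unstimulated) or 150 (stimulated). The members and gene lists were chosen with earlier results of these data known.

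Reads were recovered by own derivation. The deposited ratios are ratios of read numbers without scaling between libraries, with 0.5 in place of 0 reads. The p-values equal those of a normal test of the log ratio given the mean log count, around a zero point of 0.191 (unstimulated) and −0.036 (stimulated). The ratio and the p together give both read numbers; 99.5% of the genes of each table gave whole reads that return the deposited log2 ratio within 1e-06 and −log10 p within 0.002 or 0.2% of its value, whichever is larger. For 51 and 50 genes at the highest −log10 p, reads are lower limits and enter the library totals as such. Reads are not the authors' own counts as deposited, so no count model was fitted, and intervals cover counting error only. Simulated tables with known reads were used to check the recovery. Among genes below the highest −log10 p, the known reads came back exactly for 99.3% (unstimulated) and 99.0% (stimulated). The simulated p-values were made with the same assumed test, so this cannot check whether the authors used that test.

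Deposited ratios were reduced by the zero point. Adjusted p-values were computed from the deposited p over all genes of a table, with a threshold of 0.001. Named genes were, by rule, all members, Golm1, list genes called at 1.5-fold or more (at most 5 a list), and the 3 nearest genes by ratio; list genes outside this rule were named after their values were seen. Positions came from RefSeq (GRCm38.p6, the build called mm10). Python 3.11.15 and SciPy were used.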

Additional observations from a re-analysis of the deposited data

Results flagged for a closer look

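Tgfbr2 had ratios of opposite sign in the 2 states, 0.06 in unstimulated and −0.12 in stimulated cells, a difference of −0.18 with a counting error of 0.08. It was called in neither state, and the difference was not tested.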

How the results depend on the processing

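Groups of 1 library left no replicate to leave out. No paired analysis was possible because each group has 1 library. Centring on the median gene, or on the recovered library totals (an alternative added after seeing the data), moved no member ratio beyond its counting interval. An exact binomial test on the recovered reads, also added, called the same 5 and 3 members. With ratios as deposited, unstimulated values were 0.25 for Tgfb1, 0.43 for Tgfbi, −0.0455 for Tgfbr1, 0.25 for Tgfbr2 and −0.034 for Smad7, and stimulated values 0.13 for Tgfb1 and 0.17 for Tgfbi. The differences between states then became −0.12 for Tgfb1, −0.25 for Tgfbi, −0.0518 for Tgfbr1, −0.41 for Tgfbr2 and −0.15 for Smad7, by the unlike zero points. Those of Tgfb1, Tgfbr1 and Smad7 changed sign. In unstimulated cells the Smad list then had 1 called higher and 1 lower (0 and 2 when centred) and the TGF-beta response list 8 and 1 (6 and 3). At an adjusted p under 0.05, 8 members were called in unstimulated cells, 4 of them lower. At that threshold the pathway lists had 28 called in unstimulated cells (15 lower) and 35 in stimulated cells (20 higher). Requiring 1.5-fold as well left 3 members in unstimulated cells (1 lower) and 0 in stimulated cells, and 4 pathway genes in each state, all 4 higher and 0 lower. Over genes as precise as 50 reads a library, 3 members were called in unstimulated cells (Ctgf, Tgfbi and Tgfbr1; 1 lower), since Cyr61 and Bmp2 were left out.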

Other observations

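The SE behind the deposited p depends on the geometric mean of the 2 read numbers and is smaller than the usual Poisson SE where reads are unequal. For Cyr61 in unstimulated cells the former was 0.54 and the latter 0.68, and for Bmp2 they were 0.37 and 0.40. For Tgfb1, with like reads in both libraries, both were 0.016.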
